A study of Homo sapiens with 24 samples.

Results

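The experiment described here is a 24 h treatment of the NFIL3 line of SW480 cells with LY294002, an inhibitor of phosphoinositide 3-kinase (PI3K), at 3.3 µM, set against the same line in the solvent DMSO. The 2 LY294002 arrays and the 2 DMSO arrays were chosen by their sample titles and make up 4 of the 24 arrays in the study. SW480 is an established line from a human colon cancer, and all cells carried a pBABE-puro retroviral vector. The study had 4 stable lines: 1 with a control retrovirus and 3 in which BOP1, CKS2 or NFIL3 had been introduced. The BOP1 and CKS2 lines received the same dose of LY294002, again with 2 arrays in LY294002 and 2 in DMSO each, and show where the response of the NFIL3 line went further. The NFIL3 line was also given Rapamycin (an mTOR inhibitor, 33.3 nM) and SB203580 (a p38 inhibitor, 3.3 µM), and the CKS2 line SB203580 at the same dose. The BOP1 line was also given SP600125 and DAPT. The control line had DMSO arrays only, so that the response to LY294002 of cells without an introduced gene was not analysed here. Each line came from stable transduction, and the labels do not say whether the arrays of a group came from separate cultures or infections. They call them biological replicates. The p-values of this experiment measure only how far such arrays differ, which may be technical.

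PI3K makes a membrane lipid that brings the kinase AKT to the cell surface, where AKT is activated below growth factor receptors. AKT keeps FOXO transcription factors out of the nucleus and, through mTOR, favours protein, lipid and nucleotide synthesis, and colon cancers often carry changes that raise the activity of the pathway. LY294002 competes for the ATP site of PI3K and is known to act on mTOR, some other kinases and bromodomain proteins as well. NFIL3, also called E4BP4, is a bZIP transcription factor that mostly represses genes, including genes under circadian control.

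Illumina HumanHT-12 v4 bead arrays were used to measure RNA. Levels are given on a log2 scale after background correction and quantile normalization, an effect is the mean of the LY294002 arrays minus the mean of the DMSO arrays on that scale with its standard error (SE), and a gene is said to rise or fall where its limma p-value, after Benjamini-Hochberg adjustment across 12141 tested genes, was under 0.05. Every effect is of 2 arrays against 2. Mean raw signal ran from 971 to 1366 over the 24 arrays, and in the NFIL3 line 19399 and 18435 probes were detected in DMSO against 19227 and 19201 in LY294002. Replicates correlated at r = 0.991 to 0.996 across genes, which are not independent replicates. Of 12 markers of the SW480 line, 8 were detected on all 4 arrays, among them the epithelial genes EPCAM, CDH1, KRT8, KRT18 and KRT19 and the intestinal factor CDX2, while ASCL2, VIL1, CEACAM5 and LGR5 were not detected there. The leukocyte marker PTPRC was also undetected. The summed linear level of the leukocyte markers was 870 to 996 in DMSO and 1124 to 1200 in LY294002, beside 85318 to 86829 and 83367 to 85478 for the SW480 markers. Among leukocyte markers CD68 (effect 0.97, limma adjusted p = 0.0012) and ITGAM (0.93) rose, 3 of 12 were detected on all 4 arrays, and their part in the results was not tested. Fibroblast markers summed to 249 to 256 and 232 to 261, endothelial markers to 196 to 205 and 190 to 192, and hepatocyte markers to 321 to 409 and 482 to 492, with 1 of 10, 1 of 9 and 2 of 8 detected on all 4 arrays. In bulk RNA, fewer cells of a type and less RNA per cell cannot be told apart.

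The gene that names the line was looked at first. The NFIL3 probe read 10.39 and 10.47 on the control arrays in DMSO and 10.48 and 10.37 on the NFIL3 arrays in DMSO, a difference of -0.00 (SE 0.10, limma adjusted p = 0.984). In LY294002 it read 10.19 and 10.18 (effect -0.24, SE 0.10, adjusted p = 0.0769). The introduced gene was thus not seen at a higher level in the line labelled NFIL3. No source used here gives the position of the probe relative to the introduced sequence, so this probe does not check the label.

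LY294002 changed 3148 genes in the NFIL3 line, 25.9% of those tested. Of these, 1472 rose (12.1%) and 1676 fell (13.8%), and the median effect over all genes was -0.03. Changes of more than 2-fold were found in 149 genes that rose and 71 that fell. In the BOP1 line 1263 genes rose (10.4%) and 1361 fell (11.2%), and in the CKS2 line 1421 rose (11.7%) and 1693 fell (13.9%). More than 2-fold rises numbered 60 and 71 in those lines and falls 68 and 69. The count in the NFIL3 line depended on single arrays: 1635 genes changed without DMSO replicate 2, 1656 without LY294002 replicate 2, and 1731 when only the 4 arrays were fitted. Without DMSO replicate 1 it was 2160 and without LY294002 replicate 1 it was 2374.

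Genes called in the other lines mostly moved the same way in the NFIL3 line. Of the 1263 genes that rose in the BOP1 line, 740 also rose in the NFIL3 line, and 95.3% had an effect of the same sign there, with a median of 0.38 (0.44 in the CKS2 line). Of the 1361 that fell in the BOP1 line, 880 fell in the NFIL3 line, with a median of -0.44. Genes called in the CKS2 line behaved alike: of 1421 that rose, 749 rose in the NFIL3 line, and of 1693 that fell, 1017 fell. Seen from the NFIL3 line, 589 of its 1472 rises and 714 of its 1676 falls were called in all 3 lines, and 572 rises and 493 falls were called in neither other line. Of these, 83 and 8 also had a called difference from the mean of the other lines. Across the 12141 genes the effect in the NFIL3 line correlated with that in the BOP1 line at r = 0.668 and with that in the CKS2 line at r = 0.681, while BOP1 and CKS2 correlated at r = 0.752. These 3 effects share no array, but they do share probes and normalization, and genes are not independent. The SD of the effects over all genes was 0.378 in the NFIL3 line, 0.345 with BOP1 and 0.360 with CKS2.

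The transcription factor PDX1, a homeodomain protein needed in pancreas and duodenum that lies on chromosome 13, was among the largest falls. Its levels were 7.95 and 8.00 on the NFIL3 DMSO arrays and 6.11 and 6.06 on the LY294002 arrays. The groups lay far apart, and the fall was 3.71-fold (effect -1.89, SE 0.12, limma adjusted p = 2.52e-07). PDX1 also fell in the BOP1 line, from 7.57 and 7.65 to 6.90 and 6.75 (effect -0.79), and in the CKS2 line, from 7.40 and 7.70 to 6.27 and 6.09 (effect -1.37). The fall was larger in the NFIL3 line than in the mean of the other lines by -0.81 (SE 0.15, adjusted p = 0.0215). Against BOP1 alone the difference was -1.10 (adjusted p = 0.0357) and against CKS2 alone -0.53 (adjusted p = 0.233). Part of this difference came from DMSO, where the NFIL3 line stood 0.40 above the other lines, and part from LY294002, where it stood 0.42 below (difference -0.42). The control line had 8.19 and 8.30 in DMSO, above all of these.

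DST, on chromosome 6, encodes dystonin, a plakin that ties keratin filaments to hemidesmosomes. It had the largest rise of all. The NFIL3 DMSO arrays read 6.12 and 5.80, of which 1 was above background, and the LY294002 arrays 8.18 and 8.15. This was a 4.62-fold rise (effect 2.21, SE 0.19, limma adjusted p = 3.22e-06), and the groups did not overlap. DST rose less in the BOP1 line, from 6.16 and 6.26 to 7.21 and 7.34 (effect 1.07), and in the CKS2 line, from 6.12 and 6.26 to 6.69 and 7.27 (effect 0.79). The difference from the mean of the other lines was 1.28 (SE 0.23, adjusted p = 0.0215). In DMSO the NFIL3 line was 0.97 below the control line on this probe (7.03 and 6.83 there, difference -0.97, adjusted p = 0.00328). DST also stood above the DMSO arrays of its line with other agents. In the NFIL3 line it read 7.45 and 7.14 in SB203580 and 6.81 and 6.64 in Rapamycin. In the CKS2 line it read 7.40 and 7.28 in SB203580. In the BOP1 line it read 7.19 and 6.92 in SP600125 and 7.04 and 6.53 in DAPT. The other kept DST probes gave LY294002 effects of 1.56 and 1.36 in the NFIL3 line.

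LINC00205 is a long non-coding RNA gene on chromosome 21. It was below background on both NFIL3 DMSO arrays, at 5.91 and 5.97, and reached 7.61 and 7.96 in LY294002. A gene below background on every array of a group has only a bound: the fold is taken against the higher, on each array, of its own level and the lowest level of a detected probe. LINC00205 was at least 3.35-fold higher in LY294002 (limma adjusted p = 0.000149). In the CKS2 line it rose from 6.02 and 6.17 to 6.87 and 7.17 (effect 0.93, adjusted p = 0.0139), and in the BOP1 line it went from 6.39 and 6.26 to 6.71 and 7.07 (effect 0.57, adjusted p = 0.123). The difference between the NFIL3 line and the mean of the others was 1.10 (SE 0.31) and did not pass (adjusted p = 0.117).

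SSTR2, on chromosome 17, encodes a G protein-coupled receptor for somatostatin. It read 6.59 and 6.16 in DMSO and 8.07 and 7.83 in LY294002 in the NFIL3 line, a 2.98-fold rise with no overlap (effect 1.57, SE 0.21, limma adjusted p = 0.00012). In the BOP1 line the levels were 7.03 and 6.70 in DMSO and 7.02 and 7.17 in LY294002, and in the CKS2 line 6.69 and 6.94 against 6.60 and 7.00. The groups of those lines overlapped, with effects of 0.23 and -0.02. The difference from their mean was 1.47 (SE 0.26, adjusted p = 0.0212). The NFIL3 line stood 0.46 below the other lines in DMSO (difference -0.46) and 1.00 above them in LY294002. SB203580, set against the same NFIL3 DMSO arrays, gave SSTR2 levels of 7.54 and 7.25 (effect 1.02, adjusted p = 0.00495). In the CKS2 line SB203580 gave SSTR2 levels of 7.61 and 7.65. The differences for PDX1, DST and SSTR2 lost their call without BOP1 DMSO replicate 1, without NFIL3 DMSO replicate 2, without either NFIL3 LY294002 array, and when only the arrays compared were fitted, and that for DST also with the mean of its probes.

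**Figure D1:**
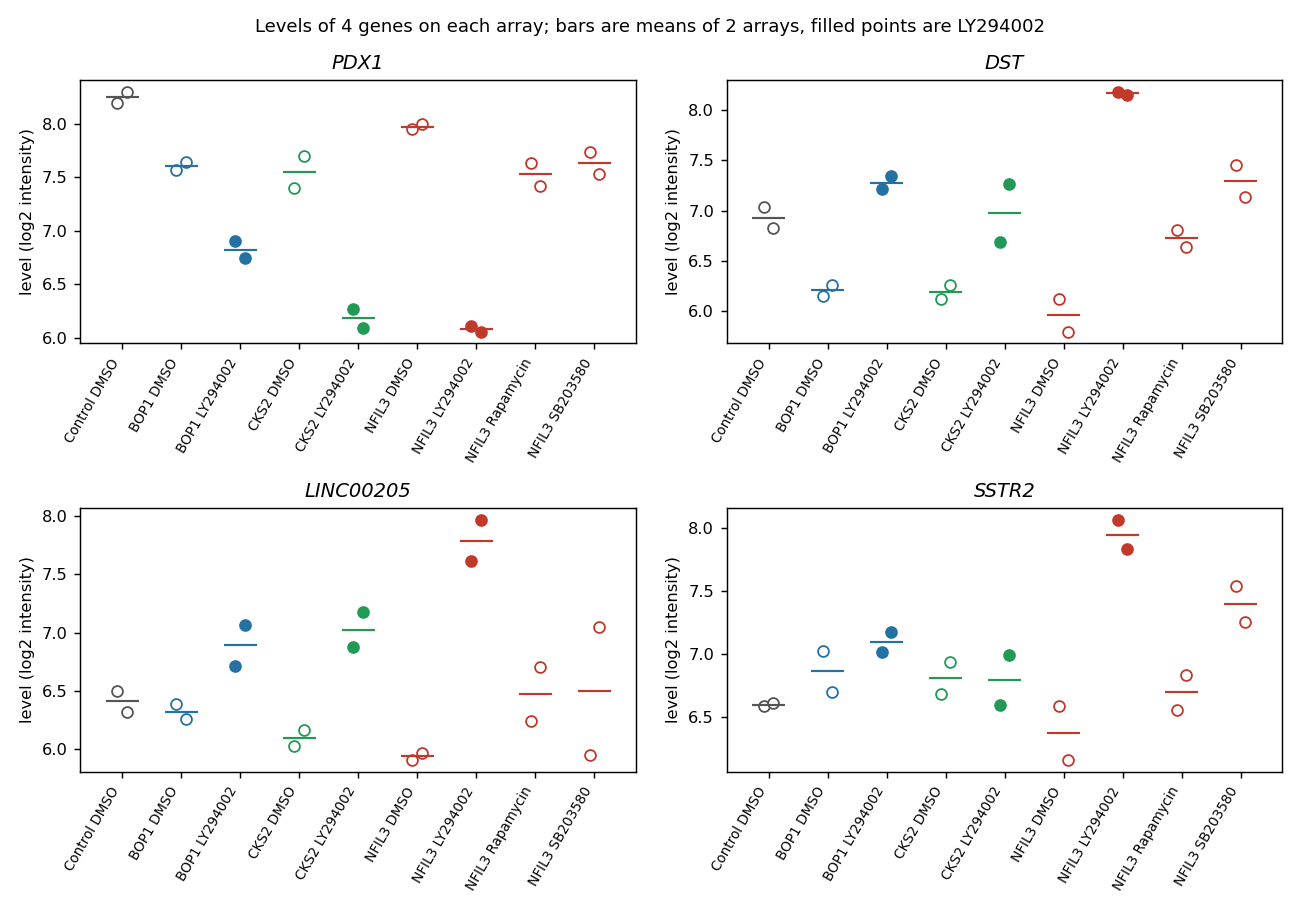
Log2 level (vertical axis) of PDX1, DST, LINC00205 and SSTR2 on each of the 18 arrays of 9 groups (horizontal axis). Filled points are LY294002 arrays and bars are means of 2 arrays. In the NFIL3 line PDX1 dropped from 7.95 and 8.00 to 6.11 and 6.06, and DST climbed from 6.12 and 5.80 to 8.18 and 8.15.

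The other large rises joined genes of very different kinds. NFAT5, a transcription factor that answers to high salt, went from 9.71 and 9.12 to 11.09 and 11.12 (effect 1.69, SE 0.20, limma adjusted p = 5.2e-05), against effects of 0.54 and 0.69 in the BOP1 and CKS2 lines. Another NFAT5 probe gave 1.31. CLIP3, which binds microtubules and takes part in AKT traffic at membranes, went from 6.03 and 5.65 to 7.44 and 7.47 (effect 1.61, adjusted p = 3.46e-05). VAPB, an endoplasmic reticulum protein that tethers other membranes, was at least 2.29-fold higher, but its other kept probe had an effect of 0.02. VPS13B, a lipid transfer protein of the Golgi, was at least 1.73-fold higher and WDR31 at least 2.09-fold higher. GOLGA8A (effect 1.63) and NBPF9 (1.50) belong to families of near-identical copies, so that the copy measured is uncertain. LINC01018 rose from 10.32 and 9.89 to 11.65 and 11.56 (effect 1.51, adjusted p = 0.00033). All of these groups were without overlap.

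Small non-coding RNAs were also among the largest rises. RN7SK, the RNA that holds the elongation factor P-TEFb inactive, went from 10.14 and 10.21 to 11.59 and 11.83 (effect 1.53, SE 0.13, limma adjusted p = 3.26e-06), and its rises elsewhere were 1.27 (BOP1) and 1.42 (CKS2). Another RN7SK probe gave 2.34 in the NFIL3 line. SNORD13, a guide for acetylation of ribosomal RNA, went from 10.09 and 9.57 to 11.37 and 11.78 (effect 1.74, SE 0.20), against 0.81 and 0.71. The difference for SNORD13 was 0.98 (adjusted p = 0.0681). MIR21, below background in DMSO at 5.27 and 5.21, read 6.94 and 7.28 in LY294002 and was at least 2.09-fold higher (adjusted p = 2.28e-06). The bound was at least 1.44-fold for BOP1 and at least 1.49-fold for CKS2. VMP1, the gene in whose transcription unit MIR21 lies, had an effect of 0.20 (adjusted p = 0.449). Of 50 miRNA genes tested, 2 rose and 3 fell. The array does not say whether its MIR21 probe reads the primary transcript or the hairpin. The mature RNA that MIR21 encodes is shown because this miRNA gene was among the largest rises. Its sequence is credited to RefSeq (GRCh38.p14, chr17:59841273-59841294, plus strand), and capitals mark the seed, bases 2 to 8.
hsa-miR-21-5p: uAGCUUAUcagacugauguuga

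Among the largest falls was NRG4, a ligand of the receptor ERBB4. It dropped from 6.81 and 6.75 to below background (4.85 and 4.91), at least 1.75-fold lower (limma adjusted p = 2.28e-06). NRG4 was also below background in LY294002 with BOP1 (5.30 and 5.53) and with CKS2 (5.42 and 5.13), so that its falls cannot be compared in size. Several other large falls were close in size in all 3 lines. LAMA2, a laminin chain of basement membranes, fell from 8.87 and 8.82 to 6.93 and 6.99 (effect -1.88, SE 0.17, adjusted p = 6.48e-06), beside -2.04 and -2.08 in the BOP1 and CKS2 lines. Its other kept probe gave -2.11. LONRF2, a ring finger protein, fell from 8.51 and 8.62 to 6.66 and 6.86 (effect -1.80, SE 0.12), beside -1.87 and -1.81. MRAP2, an accessory protein of melanocortin receptors, fell from 8.30 and 8.34 to 6.44 and 6.77 (effect -1.71), with an effect of -0.75 on another probe, above background on 7 of 24 arrays. MMP7, the matrix protease matrilysin, was at least 1.77-fold lower (adjusted p = 5.19e-05), and DDN fell by 1.65 on the log2 scale. TUBA4A, an alpha tubulin, fell from 9.33 and 9.64 to 8.15 and 7.86 (effect -1.48), against -0.82 and -1.05. KRT20, a keratin given below, was also among the 14 largest falls (-1.52), as were LETM2 (-1.43), the cytokine chain IL12A (-1.42), OASL (at least 1.98-fold lower), the hexokinase HKDC1 (at least 1.50-fold lower) and FSTL5 (at least 1.43-fold lower). OASL and MMP7 were less alike between lines. OASL went from 6.84 and 7.07 to 5.70 and 5.30 in the NFIL3 line. It went from 6.73 and 6.71 to 6.32 and 5.66 with BOP1, and from 6.82 and 6.75 to 6.38 and 6.37 with CKS2. MMP7 went from 6.68 and 6.91 to 4.96 and 5.28 in the NFIL3 line. It went from 5.93 and 6.10 to 4.87 and 4.73 with BOP1, and from 6.07 and 6.08 to 5.17 and 5.47 with CKS2. All 28 of the largest rises and falls kept their call under every alternative in which they were tested. MIR21, MMP7, FSTL5 and WDR31 were above background on fewer than 12 arrays. They were not tested in the alternative that required detection on at least 12 arrays.

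**Figure D2:**
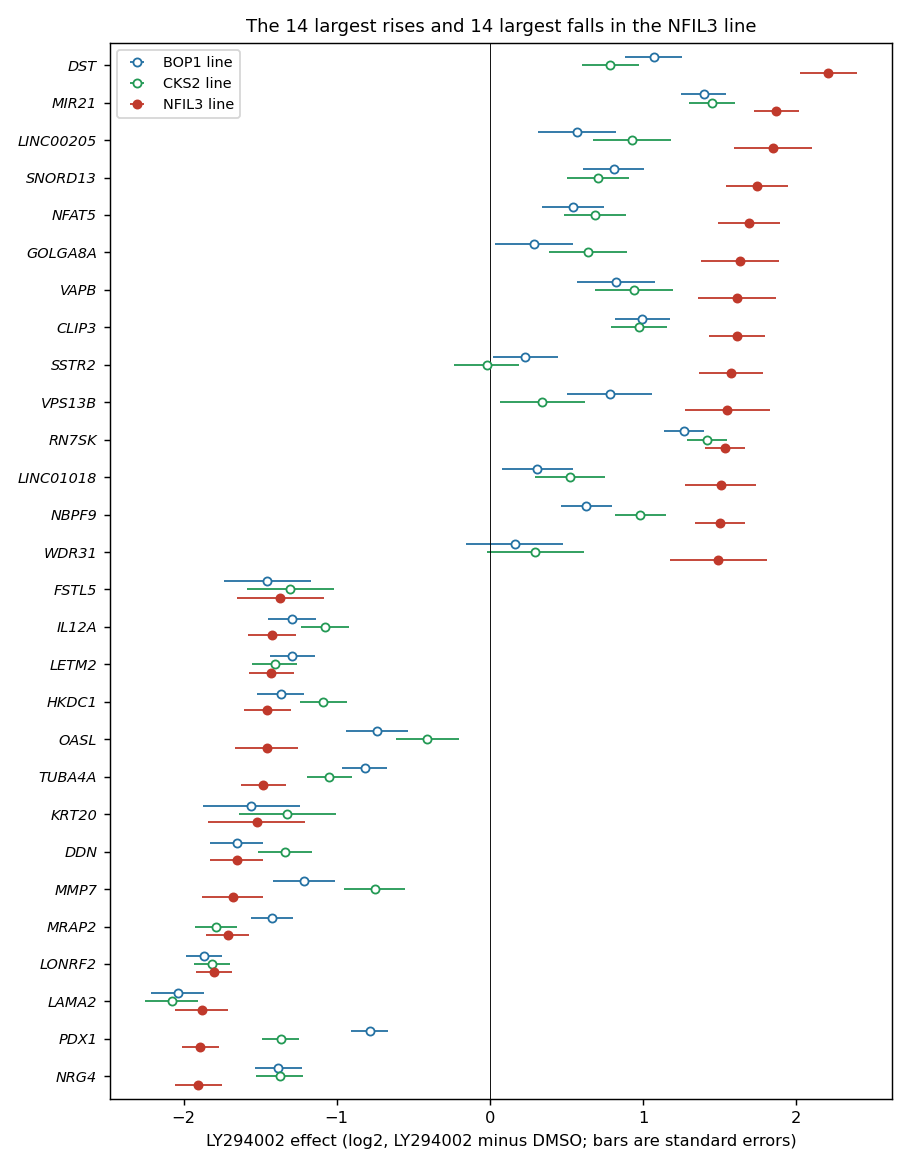
LY294002 effect (log2, horizontal axis) of the 14 largest rises and the 14 largest falls in the NFIL3 line, in each of the 3 lines, with bars of 1 SE. DST reached 2.21 in the NFIL3 line against 1.07 and 0.79, while LAMA2 was alike in all of them (-1.88, -2.04 and -2.08).

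Targets of FOXO factors, which PI3K and AKT keep inactive, were described as a list. Counts of lists are to be read against all genes tested, of which 12.1% rose and 13.8% fell, with a median effect of -0.03. Of 28 tested, 14 rose, with a median effect of 0.39, and 20 of 28 had LY294002 arrays above both DMSO arrays, as had 29.4% of all genes. Without DMSO replicate 2, 8 rose. The BOP1 and CKS2 lines had 13 and 11 rises with medians of 0.36 and 0.35. IRS2, an adaptor of the insulin receptor, went from 9.70 and 9.49 to 10.69 and 10.63 (effect 1.06, SE 0.09, limma adjusted p = 4.19e-06), beside 1.05 and 1.34. FOXO3 itself, which FOXO factors also regulate, went from 11.55 and 11.40 to 12.22 and 12.18 (effect 0.73, adjusted p = 0.000188), against 0.33 and 0.25, and that difference did not pass (adjusted p = 0.124). TP53INP1, a stress protein in autophagy and apoptosis, rose by 0.67, and BTG1, which restrains cell division, by 0.63. The transcription factor BCL6 rose by 0.63 as well.

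Receptors and adaptors that feed PI3K rose in 7 of 18 cases (38.9%, against 12.1% of all genes; median 0.32), 4 of 18 without LY294002 replicate 2. The receptor tyrosine kinase AXL went from 10.02 and 10.02 to 10.88 and 10.96 (effect 0.91, limma adjusted p = 8.6e-05), with 0.74 and 1.03 in the BOP1 and CKS2 lines. GRB7, an adaptor of ERBB2, went from 10.25 and 10.06 to 10.88 and 11.13 (effect 0.85). FGFR1, a fibroblast growth factor receptor, was below background in DMSO (5.24 and 5.18) and read 6.88 and 6.38 in LY294002, at least 1.50-fold higher. The components of PI3K, AKT and mTOR signalling showed no common direction: 5 of 29 rose, 3 fell and the median was -0.07. TSC1, which restrains mTOR complex 1, rose from 10.71 and 10.65 to 11.13 and 11.26 (effect 0.52), but its other kept probes gave 0.34 and -0.29. PIK3R1, the regulatory subunit of PI3K, rose by 0.38 and PIK3C2B, a class II PI3K, fell by 0.53. These last 3 calls were lost under some alternatives, and leaving out a single array of the 4 left 2 to 4 rises and 0 to 1 falls in this list.

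Genes of mitosis fell together. Of 30 genes of the G2/M list, 24 fell, the median effect was -0.69, and 29 of 30 had LY294002 arrays below both DMSO arrays, as had 35.1% of all genes. Without LY294002 replicate 2, 13 fell. In the BOP1 and CKS2 lines 20 and 25 fell, with medians of -0.53 and -0.65. CCNB1, cyclin B1, went from 12.05 and 12.16 to 11.39 and 11.15 (effect -0.84, limma adjusted p = 0.000276). CCNA2, cyclin A2, went from 12.73 and 12.67 to 12.02 and 11.57 (effect -0.91), and BIRC5, survivin, from 11.93 and 11.91 to 11.23 and 10.90 (effect -0.86). FOXM1, a transcription factor that drives these genes, fell from 10.60 and 10.65 to 9.90 and 9.49 (effect -0.93, adjusted p = 0.000637), against -0.27 and -0.46 in the other lines, and that difference did not pass (adjusted p = 0.208). For each of these 4 genes LY294002 replicate 2 was the lowest array.

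Promoters of mitotic genes often carry the cell cycle genes homology region, whose letters are TTTGAA, and the CCAAT box. Both were looked for on both strands in windows of 300 bases around the start of each gene (RefSeq, GRCh38.p14), which 9702 of the 12141 genes had. TTTGAA was found in 14 of 24 G2/M promoters (58.3%), in 1 of 25 G1/S promoters (4%) and in 9.83% of all promoters. It was found in 15.6% of the promoters of genes that fell and in 8.67% of those of genes that rose. CCAAT was found in 19 of 24 G2/M promoters (79.2%) and in 37% of all. The letters of these motifs do not overlap each other, and a match is a description of the window only. The stretches of 120 bases before the start of PLK1, the mitotic kinase (chr16:23678769-23678888), CCNB2, cyclin B2 (chr15:59105026-59105145), BUB1B, a checkpoint kinase (chr15:40160949-40161068), and CDC20, an activator of the anaphase-promoting complex (chr1:43358861-43358980), are shown because they hold TTTGAA, in capitals, close to the start. All are on the plus strand.
PLK1: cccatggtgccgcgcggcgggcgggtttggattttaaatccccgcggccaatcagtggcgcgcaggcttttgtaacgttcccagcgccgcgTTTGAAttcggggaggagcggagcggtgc
CCNB2: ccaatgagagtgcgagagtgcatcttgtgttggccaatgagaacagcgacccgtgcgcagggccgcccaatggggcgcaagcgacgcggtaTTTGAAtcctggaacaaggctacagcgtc
BUB1B: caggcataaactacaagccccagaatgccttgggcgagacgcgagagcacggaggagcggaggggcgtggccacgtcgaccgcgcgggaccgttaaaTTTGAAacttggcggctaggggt
CDC20: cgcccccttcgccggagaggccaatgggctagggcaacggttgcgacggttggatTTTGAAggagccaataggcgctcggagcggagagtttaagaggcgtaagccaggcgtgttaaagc

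Each of these 4 genes fell in the NFIL3 line. PLK1 went from 8.05 and 8.33 to 7.52 and 7.45 (effect -0.70, limma adjusted p = 0.000892). CCNB2 went from 12.84 and 12.89 to 12.29 and 11.78 (effect -0.83, adjusted p = 0.000998). CDC20 went from 13.86 and 14.00 to 13.32 and 13.09 (effect -0.73, adjusted p = 0.000219). The groups did not overlap for any of them. BUB1B went from 9.85 and 10.00 to 9.55 and 9.02 (effect -0.64, adjusted p = 0.00898), a call that was lost without DMSO replicate 2 (effect -0.56, adjusted p = 0.0773) and without LY294002 replicate 2 (-0.38, adjusted p = 0.152). The FOXO motif GTAAACA, searched in the same way, was in 3 of 23 promoters of the FOXO list (13%), in 3.9% of promoters of genes that rose, in 1.89% of those that fell and in 2.27% of all.

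Genes of the G1/S transition and of DNA replication fell in 20 of 29 cases, against 13.8% of all genes, with a median of -0.41 (15 and 15 falls in the BOP1 and CKS2 lines). The count was 11 without DMSO replicate 2 and 10 without LY294002 replicate 2. CDC6, which loads the replicative helicase, went from 7.92 and 7.96 to 7.29 and 6.71 (effect -0.94, limma adjusted p = 0.000351). RFC3, a subunit of the clamp loader, fell by 0.94 on the log2 scale and MCM4, of the helicase itself, by 0.57. POLE2, a subunit of DNA polymerase epsilon, went from 11.23 and 11.34 to 10.50 and 10.58 (effect -0.74), close to -0.73 and -0.69 in the other lines. Among inhibitors of cyclin-dependent kinases, CDKN2B, which blocks CDK4 and CDK6, rose from 8.32 and 8.37 to 8.99 and 8.82 (effect 0.56), and CDKN3, a phosphatase that acts on CDKs, fell by 0.95. CDKN1A, a FOXO and p53 target, had an effect of -0.21 (adjusted p = 0.142). Of 7 in that list 1 rose and 2 fell, and 1 fell when any single array of the 4 was left out.

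Histone genes rose in 8 of 15 cases and fell in 1, with a median of 0.36, against 12.1% and 13.8% of all genes. In the BOP1 and CKS2 lines 10 and 9 rose, with medians of 0.55 and 0.54. H4C14 went from 7.92 and 8.20 to 9.23 and 9.39 (effect 1.25, limma adjusted p = 4.21e-06), beside 1.33 and 1.62 in the BOP1 and CKS2 lines. H2AC6 rose by 1.24, H2BC5 by 1.18 and H2AC18 by 1.07. Histone genes have near-identical copies, so that the copy measured is uncertain.

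Several lists of the protein synthesis machinery had more falls than rises. Of 33 genes of ribosome biogenesis 16 fell and 2 rose (median -0.27). The falls numbered 10 without DMSO replicate 1 and without LY294002 replicate 2, and the rises 0 to 2 when a single array was left out. UTP20, a component of the small subunit processome, went from 6.56 and 6.74 to 5.88 and 6.00 (effect -0.71, limma adjusted p = 0.00235), against -0.32 and -0.01 in the other lines. NOP16 fell by 0.57, and RRP12 and RRS1, both needed for pre-ribosome maturation, fell by 0.48 and 0.51. Of 31 ribosomal protein genes 5 rose (16.1%; 2 without DMSO replicate 2), near the share over all genes (12.1%), and the median was 0.07. Of 18 aminoacyl-tRNA synthetases 10 fell (against 13.8% of all genes) and 1 rose (median -0.28), and the falls numbered 6 without either DMSO array and without LY294002 replicate 2. MARS1, for methionine, went from 11.77 and 11.82 to 10.96 and 10.90 (effect -0.86, adjusted p = 0.000105) and YARS1, for tyrosine, from 12.61 and 12.69 to 11.83 and 11.81 (effect -0.83). KARS1, for lysine, fell by 0.52 against -0.15 and -0.01 in the other lines, a difference that did not pass (adjusted p = 0.0949). FARSB, a subunit of the phenylalanine enzyme, rose by 0.52.

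Lists of amino acid supply also had more falls than rises. ASNS, asparagine synthetase and a target of the transcription factor ATF4, went from 12.79 and 12.86 to 11.96 and 11.81 (effect -0.94, limma adjusted p = 4.35e-05). PHGDH, the entry enzyme of serine synthesis, went from 13.83 and 14.03 to 13.08 and 13.00 (effect -0.89, adjusted p = 3.46e-05). These were 2 of 6 falls among 20 genes of the ATF4 list (median -0.30), with TRIB3 (-0.64) and PSAT1 (-0.51). Of 12 amino acid transporters 6 fell and 1 rose (median -0.38), the rise being lost in 3 of the 4 fits that left out an array. SLC7A5, the leucine transporter, went from 12.91 and 12.89 to 12.18 and 12.15 (effect -0.73), and its partner SLC3A2 fell by 0.52. Of 16 genes of purine and pyrimidine synthesis 7 fell (median -0.27), but 2 to 5 when a single array of the 4 was left out. CTPS1, which makes CTP, went from 11.41 and 11.56 to 10.68 and 10.60 (effect -0.84, adjusted p = 0.000302).

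Among lipid and sugar genes, 9 of 20 of cholesterol synthesis fell, against 13.8% of all genes, and 2 rose (median -0.29; 1 rose without DMSO replicate 2 or LY294002 replicate 1). ACAT2 fell from 13.51 and 13.50 to 12.70 and 12.79 (effect -0.76, limma adjusted p = 0.000228), MVK, mevalonate kinase, by 0.70, and HMGCS1 by 0.57. TM7SF2, a sterol reductase, went the other way, from 11.63 and 11.66 to 12.41 and 12.66 (effect 0.89, adjusted p = 8.63e-05). ABCA1, which exports cholesterol, rose by 0.92. HK2, hexokinase 2, which starts glycolysis, fell from 10.13 and 10.10 to 8.70 and 8.88 (effect -1.33, SE 0.11, adjusted p = 3.22e-06), with -1.19 and -1.34 in the other lines. Its other kept probe gave -0.64 in the NFIL3 line and -0.33 and -0.51 in the others. HK2 was among 8 falls of 29 glycolysis and hypoxia genes (median -0.16), a count that was 3 to 5 when a single array of the 4 was left out. PFKFB4 fell by 0.51 and BNIP3L, a mitophagy receptor, rose by 0.61.

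Stress genes of the endoplasmic reticulum fell in 9 of 17 cases (median -0.35), against 5 and 7 in the BOP1 and CKS2 lines. XBP1, the transcription factor of the unfolded protein response, read 12.49 and 12.45 in DMSO and 11.87 and 11.89 in LY294002 (effect -0.59, SE 0.08, limma adjusted p = 9.19e-05), while its effects were 0.03 and -0.16 in the other lines. That difference was -0.53 and passed (adjusted p = 0.0212), although another XBP1 probe gave an effect of 0.04 in the NFIL3 line. The chaperones DNAJB11 (-0.64), HYOU1 (-0.61) and SDF2L1 (-0.63) fell as well. Of 15 cytosolic heat shock genes 6 fell (median -0.30), and 2 to 5 did so when a single array of the 4 was left out.

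Adhesion and differentiation genes did not share a direction. Plakins and hemidesmosome genes rose in 5 of 10 cases (median 0.32), 3 without LY294002 replicate 2. Besides DST, ITGB4, the integrin chain that plakins bind, went from 12.18 and 12.13 to 13.15 and 13.26 (effect 1.05, limma adjusted p = 3.09e-05), and PPL, periplakin, rose by 0.71. KRT20, a keratin of mature colonocytes, fell from 7.81 and 7.63 to 5.97 and 6.42 (effect -1.52, SE 0.32, adjusted p = 0.00246), and DPP4, a brush border peptidase, by 0.95. SPP1, the matrix protein osteopontin, fell from 8.91 and 9.04 to 7.92 and 7.74 (effect -1.15), beside -2.14 and -1.52 in the other lines. Of 14 transcription factors of intestine and foregut 4 fell and 2 rose (3 to 4 and 0 to 2 when a single array was left out). EHF, an epithelial ETS factor, went from 9.23 and 9.19 to 8.31 and 8.55 (effect -0.78), whereas CDX2 stayed at 10.08 and 9.97 in DMSO and 10.08 and 9.95 in LY294002 (effect -0.01, adjusted p = 0.956). Of 6 enteroendocrine and islet genes SSTR2 rose and 2 fell, 1 of them without DMSO replicate 2 or LY294002 replicate 2. SCG5, a chaperone of prohormone convertase, fell from 7.26 and 7.39 to 5.89 and 6.18 (effect -1.29), against -0.37 and -0.50 in the other lines, but the difference did not pass (adjusted p = 0.198).

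Smaller groups filled out the response. Metallothioneins, which bind zinc, and zinc genes rose in 5 of 8 cases, against 12.1% of all genes (2 without DMSO replicate 2 and without LY294002 replicate 2), with MT1G going from 8.45 and 8.38 to 9.47 and 9.47 (effect 1.05, limma adjusted p = 8.93e-06) and MT2A rising by 0.67. HMOX1, heme oxygenase, fell from 9.49 and 9.55 to 8.68 and 8.57 (effect -0.90, adjusted p = 5.97e-05), as 1 of 6 falls among 16 NRF2 targets (2 to 5 when a single array of the 4 was left out). The bZIP factor MAFF rose by 1.06 and JUN by 0.56. GDF15, a stress-induced cytokine, rose from 12.32 and 12.33 to 13.18 and 13.30 (effect 0.91). Among interferon genes OAS3 fell from 10.77 and 10.87 to 9.88 and 9.95 (effect -0.90; -0.14 on another probe, above background on 6 of 24 arrays), IFIT1 by 0.91, and IRF7 rose by 0.78, but 3 of 22 fell and 2 rose (13.6% and 9.09%), near the shares over all genes (13.8% and 12.1%). When a single array of the 4 was left out, 2 to 3 fell and 1 to 2 rose. AHR, the aryl hydrocarbon receptor, rose by 0.69, but its other kept probe had an effect of -0.14, so that its direction depends on the probe. CTSB, cathepsin B, rose by 0.73. MYC, a frequent target of growth signalling, had an effect of 0.11 (adjusted p = 0.37).

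**Figure D3:**
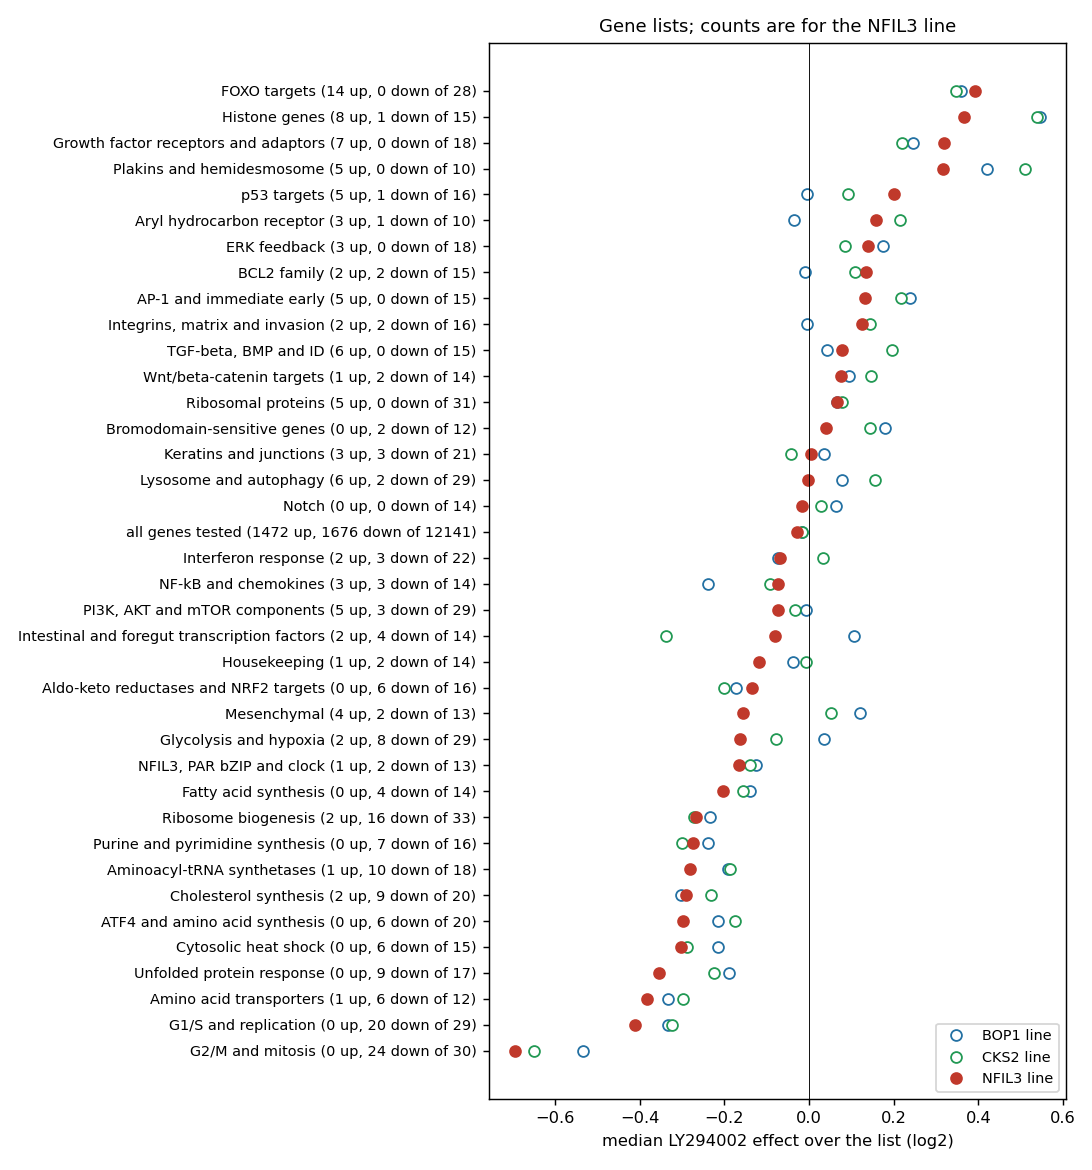
Median LY294002 effect (log2, horizontal axis) of each gene list with at least 10 tested genes, in the 3 lines. Labels give how many genes rose and fell in the NFIL3 line. G2/M and mitosis lay lowest in the NFIL3 line, at -0.69, and FOXO targets highest, at 0.39.

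The response of the NFIL3 line was then set against the mean of the BOP1 and CKS2 responses. The difference was called in 120 genes: it was higher in 107 (0.881% of the genes tested) and lower in 13 (0.107%). Against the BOP1 line alone it was higher in 13 (0.107%) and lower in 4 (0.0329%), and against the CKS2 line alone higher in 32 (0.264%) and lower in 4 (0.0329%). The BOP1 and CKS2 responses did not differ from each other in any gene by limma at an adjusted p under 0.05. At an unadjusted p under 0.05 they differed in 779 genes, whereas the difference of the NFIL3 line from their mean had 1376. The latter has a smaller median SE (0.158 against 0.183). The NFIL3 line against BOP1 alone and against CKS2 alone, each with a median SE of 0.183, had 1227 and 1315. The count of 120 rested on single arrays. It was 1 without NFIL3 DMSO replicate 2, 0 by limma without NFIL3 LY294002 replicate 2, and 11 without NFIL3 LY294002 replicate 1. It was 8 without BOP1 DMSO replicate 1, 30 without CKS2 DMSO replicate 2, 77 without BOP1 LY294002 replicate 1 and 68 without CKS2 LY294002 replicate 1. It grew to 181 without NFIL3 DMSO replicate 1 and to 318 without CKS2 LY294002 replicate 2. The sign of the difference held in all 107 and all 13 genes in each of the 12 fits that left out an array, a property that the choice of these genes favours.

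The 107 genes had a median effect of 0.78 in the NFIL3 line, -0.16 with BOP1 and -0.19 with CKS2. Of these, 86 rose in the NFIL3 line, and 41 fell in the mean of the other lines, where 2572 of all genes fell (21.2%). These values chose the genes and are given as a description. In DMSO the NFIL3 line was below the other lines in 67 of these genes and above them in 40 (median -0.06), while in LY294002 it stood above them in 107 of 107 (median 0.87). Set against the mean of the control arrays, the median of the 107 genes was 0.37 and 0.12 on the NFIL3 DMSO arrays and 1.05 and 1.08 on the NFIL3 LY294002 arrays. It was 0.15 and 0.23 on the BOP1 LY294002 arrays and -0.02 and 0.15 on the CKS2 LY294002 arrays. Rapamycin in the NFIL3 line gave 0.05 and 0.17. Both NFIL3 LY294002 arrays stood above all of these other arrays, an order that the choice of these genes favours.

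Other arrays of the study also had high levels of these 107 genes. SB203580 gave medians of 0.71 and 0.68 on the NFIL3 arrays and 0.71 and 0.72 on the CKS2 arrays. On the BOP1 arrays SP600125 gave 0.45 and 0.49, above every DMSO array, and DAPT gave 0.19 and 0.07. Against the NFIL3 DMSO arrays, which the LY294002 effect shares, SB203580 raised 59 of the 107 genes (median effect 0.49), where 554 of all genes rose (4.56%). Against the CKS2 DMSO arrays, which entered the choice of the 107 genes, SB203580 raised 57 (median 0.47), where 617 of all genes rose (5.08%). These shared arrays mean that the counts are no independent check. Rapamycin, again on the shared NFIL3 DMSO arrays, raised 428 of all genes (3.53%) and lowered 496 (4.09%), and had a median of -0.11 over the 107 genes.

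The levels of a probe for 18S ribosomal RNA, RNA18SN5, are set beside these. It read 10.07 and 9.74 on the NFIL3 DMSO arrays and 10.59 and 10.73 on the NFIL3 LY294002 arrays. It read 9.12 and 9.38 in the BOP1 line and 8.61 and 9.92 in the CKS2 line in LY294002, and 11.16 and 11.45 and 10.86 and 11.11 on the SB203580 arrays of the NFIL3 and CKS2 lines. The LY294002 effect was 0.76 in the NFIL3 line (limma adjusted p = 0.0751), -0.68 with BOP1 and -0.84 with CKS2, a difference of 1.52 (adjusted p = 0.0627). RNA28SN5, for 28S ribosomal RNA, went from 13.32 and 12.69 to 13.51 and 13.62 (effect 0.56, adjusted p = 0.146), against -0.74 and -0.40, a difference of 1.13 (adjusted p = 0.138). Its other kept probe gave larger effects, 1.56 in the NFIL3 line against -1.08 and -1.22. Mature ribosomal RNA has no poly(A) tail, on which the labelling kit primes. Minus the control mean, the 18S probe stood at 1.18 and 1.32 on the NFIL3 LY294002 arrays. It stood at 1.75 and 2.03 on the NFIL3 SB203580 arrays and at 1.45 and 1.70 on the CKS2 SB203580 arrays. The 18S probe and the median of the 107 genes were both higher on these arrays than on any other array. Among these arrays the probe was higher in SB203580. The median was higher in NFIL3 LY294002, whose arrays entered the choice of the genes. The part of ribosomal RNA or of labelling in the 107 genes was not tested.

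**Figure D4:**
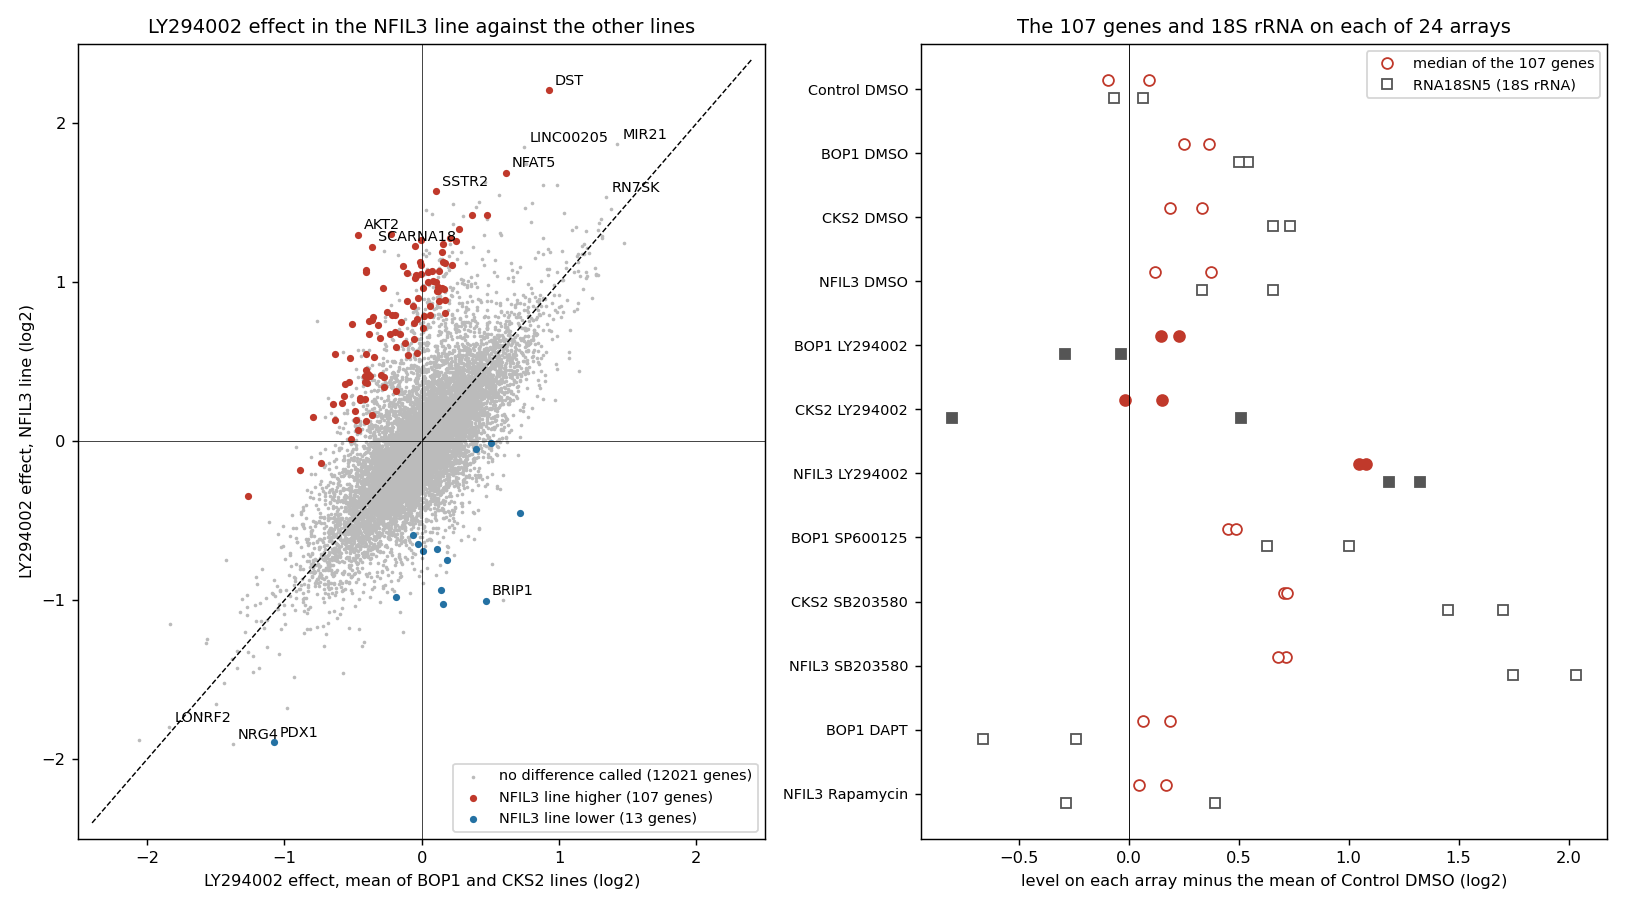
Left, LY294002 effect (log2) of each of 12141 genes in the NFIL3 line (vertical axis) against the mean effect in the BOP1 and CKS2 lines (horizontal axis), with 107 genes of higher difference in red, 13 of lower difference in blue and the dashed line of equality. Right, for each of 24 arrays by group, the median of the 107 genes (red circles) and the 18S ribosomal RNA probe (grey squares) minus the control mean, filled for LY294002. The NFIL3 LY294002 arrays reach 1.05 and 1.08 for the 107 genes, and the SB203580 arrays 0.68 to 0.72.

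The difference against both other lines, each tested alone, was called higher in 4 genes (0.0329%): ANKRD20A1, CERT1, PLA2G2D and SCARNA18. PLA2G2D, a secreted phospholipase, went from 6.92 and 6.56 to 7.96 and 8.05 in the NFIL3 line (effect 1.27, limma adjusted p = 2.79e-05), and its difference from the mean of the others was also 1.27 (adjusted p = 0.00583). CERT1, which carries ceramide from the endoplasmic reticulum to the Golgi, went from 9.71 and 9.57 to 10.24 and 10.38 (effect 0.68), with a difference of 0.91 (adjusted p = 0.0113). Its other kept probe moved the opposite way, at -0.71, so that the direction of CERT1 depends on the probe. ANKRD20A1 went from 8.63 and 8.52 to 9.12 and 9.13 (effect 0.55) against -0.52 and -0.74 in the other lines (difference 1.18), but it belongs to a family of near-identical copies, its kept probes gave 0.55, 0.32, 0.00 and -0.28, and its effect lost its call without NFIL3 DMSO replicate 2 (adjusted p = 0.0506).

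AKT2 is a kinase directly below PI3K. On its only kept probe it was below background in DMSO, at 5.83 and 5.60, and read 7.00 and 7.03 in LY294002, at least 1.96-fold higher (limma adjusted p = 0.0019). In the BOP1 line it went from 6.41 and 6.34 to 5.40 and 6.00 (effect -0.67, adjusted p = 0.0761), and in the CKS2 line from 6.34 and 6.39 to 5.67 and 6.54. The NFIL3 line stood below the other lines in DMSO (-0.65) and above them in LY294002 (1.11), a difference in effect of 1.76 (adjusted p = 0.0215), whose call was lost under 5 of 19 alternatives. For AKT2, and for the other genes here that were below background in an NFIL3 group, such a difference is computed from signals at background and its size is not a measured one. MYO3B, a myosin with a kinase domain, was at least 1.99-fold higher (difference 1.53). It read 7.19 and 6.89 in LY294002 and also 7.31 and 6.72 in SB203580 in the NFIL3 line. NEK8, a kinase of the primary cilium, rose from 6.69 and 6.37 to 7.70 and 7.49 (effect 1.06) while it fell by 0.67 in the BOP1 line (difference 1.47). The readthrough gene BORCS8-MEF2B, whose reads cannot be told from its parts, was at least 1.08-fold higher (difference 1.48). NFAT5, described above, had a difference of 1.08 (adjusted p = 0.048) that lost its call under 14 of 19 alternatives.

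Some genes went in opposite directions in different lines. MTF1, the metal-sensing factor that drives metallothioneins, went from 8.91 and 8.54 to 9.19 and 9.36 in the NFIL3 line (effect 0.55, limma adjusted p = 0.0108), a call lost without NFIL3 DMSO replicate 2 and without LY294002 replicate 2, and it fell by 0.60 in the BOP1 line (difference 0.96). The amino acid transporter SLC38A1 had an effect of 0.37 against -0.34 and -0.47 (difference 0.78, adjusted p = 0.0215). MECOM, a zinc finger factor, differed in another way: it fell in every line, but by 0.35 in the NFIL3 line against 0.99 and 1.54 on the log2 scale in the BOP1 and CKS2 lines (effects -0.35, -0.99 and -1.54, difference 0.92), and its call in the NFIL3 line was lost under 7 of 11 alternatives. MECOM, MTF1 and SLC38A1 were chosen after their values were seen.

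Among the 13 genes whose difference was lower, 10 fell in the NFIL3 line, and the medians were -0.69, 0.12 and 0.20 in the NFIL3, BOP1 and CKS2 lines. BRIP1, a helicase that works with BRCA1 in DNA repair, read 6.62 and 6.47 in DMSO and dropped below background to 5.42 and 5.66, at least 1.48-fold lower (limma adjusted p = 0.00118), while it rose by 0.70 in the BOP1 line. Its difference was -1.47 (adjusted p = 0.0155). SB203580 in the NFIL3 line, with the same DMSO arrays, gave similar BRIP1 levels of 5.61 and 5.61. POLE, the catalytic subunit of DNA polymerase epsilon, went from 11.30 and 11.45 to 10.77 and 10.68 (effect -0.65) against -0.08 and 0.03 (difference -0.62, adjusted p = 0.0307). SCFD2 fell from 7.54 and 7.47 to 6.59 and 6.46 (effect -0.98, difference -0.80), CCDC69 was at least 1.21-fold lower, and NLE1, a ribosome assembly factor, fell by 0.68, although its other kept probe had an effect of 0.11. Without NFIL3 DMSO replicate 2 the call of the NLE1 effect was lost (adjusted p = 0.0539). The readthrough gene PPAN-P2RY11 fell by 0.93 (difference -1.07). CKB, creatine kinase, and RHOF, a small GTPase, had effects of -0.05 and -0.01 in the NFIL3 line while they rose by 0.44 and 0.41 in the BOP1 line and by 0.36 and 0.59 in the CKS2 line. ABTB2 fell by 0.69 (difference -0.70). XBP1 and PDX1, described above, were also among the 13, and POLE, CKB, RHOF and ABTB2 were named after their values were seen.

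Small Cajal body RNAs (scaRNAs), which guide chemical modification of spliceosomal RNAs, had more rises in the NFIL3 line than in the other lines, by count. This group was picked after its values were seen, so that it carries no test. Of 12 tested, 8 rose in the NFIL3 line (66.7%, against 12.1% of all genes), with a median effect of 0.90. In the BOP1 line 3 rose (25%, against 10.4% of all genes), with a median of 0.18. In the CKS2 line 1 rose (8.33%, near the 11.7% of all genes), with a median of -0.03. SCARNA18 went from 7.33 and 7.23 to 8.38 and 8.61 (effect 1.22, SE 0.19, limma adjusted p = 0.000398), with effects of -0.27 and -0.45 in the other lines, and its difference was 1.58 (adjusted p = 0.0119). SCARNA16 went from 8.07 and 7.49 to 8.93 and 9.09 (effect 1.23, difference 1.28). SCARNA9 went from 9.11 and 8.78 to 10.02 and 9.98 (effect 1.06, difference 1.06), and SCARNA13 from 10.39 and 10.44 to 11.10 and 11.20 (effect 0.73, difference 1.05). These were the 4 scaRNAs with a called difference. The call for the effect of SCARNA13 was lost without LY294002 replicate 2 (effect 0.69, adjusted p = 0.0625). SCARNA11 (effect 1.47) and SCARNA8 (1.37) rose too, whereas SCARNA10 (-0.29), SCARNA27 (-0.06), SCARNA12 (0.43) and SCARNA7 (0.29) did not pass. On the shared NFIL3 DMSO arrays, Rapamycin had effects of 0.35 on SCARNA18, -0.22 on SCARNA16 and -0.06 on SCARNA9, and SB203580 0.84, 0.02 and 0.17.

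RefSeq's class of small nuclear RNAs holds spliceosomal RNAs and also RN7SK and SNAR-A1, which are not spliceosomal. Of 12 tested, 9 rose in the NFIL3 line (median 1.03), against 12.1% of all genes, 7 rose and 1 fell with BOP1, and 6 rose and 1 fell with CKS2. The fall in both lines was that of SNAR-A1. RNU4-2, a U4 RNA, went from 8.12 and 8.08 to 9.29 and 9.57 (effect 1.33, limma adjusted p = 0.000118), beside 1.10 and 1.09. RNU1-3, 1 of many near-identical U1 genes, went from 9.83 and 9.49 to 10.87 and 11.01 (effect 1.28). RNU11, of the minor spliceosome, had an effect of 0.14 (adjusted p = 0.519). TERC, the RNA of telomerase, rose from 8.34 and 8.12 to 8.96 and 9.07 (effect 0.78, adjusted p = 0.0135), a call lost without DMSO replicate 2 (adjusted p = 0.105) and without LY294002 replicate 2 (adjusted p = 0.0846). Its difference was 1.05 (adjusted p = 0.0681). RNA5S9, for 5S ribosomal RNA, went from 9.67 and 9.53 to 10.57 and 10.70 (effect 1.03), with 0.59 and 0.74 in the other lines. Mature forms of most of these RNAs lack a poly(A) tail, and which transcripts their probes read was not tested. The levels of the 18S probe are given above. It was highest on the SB203580 arrays. In the NFIL3 line SB203580 had the small effects given above on SCARNA16 and SCARNA9 and a larger one on SCARNA18. SCARNA18 read 8.18 and 8.05 there, against 7.33 and 7.23 in DMSO. The part of the 18S probe in these results was not tested.

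**Figure D5:**
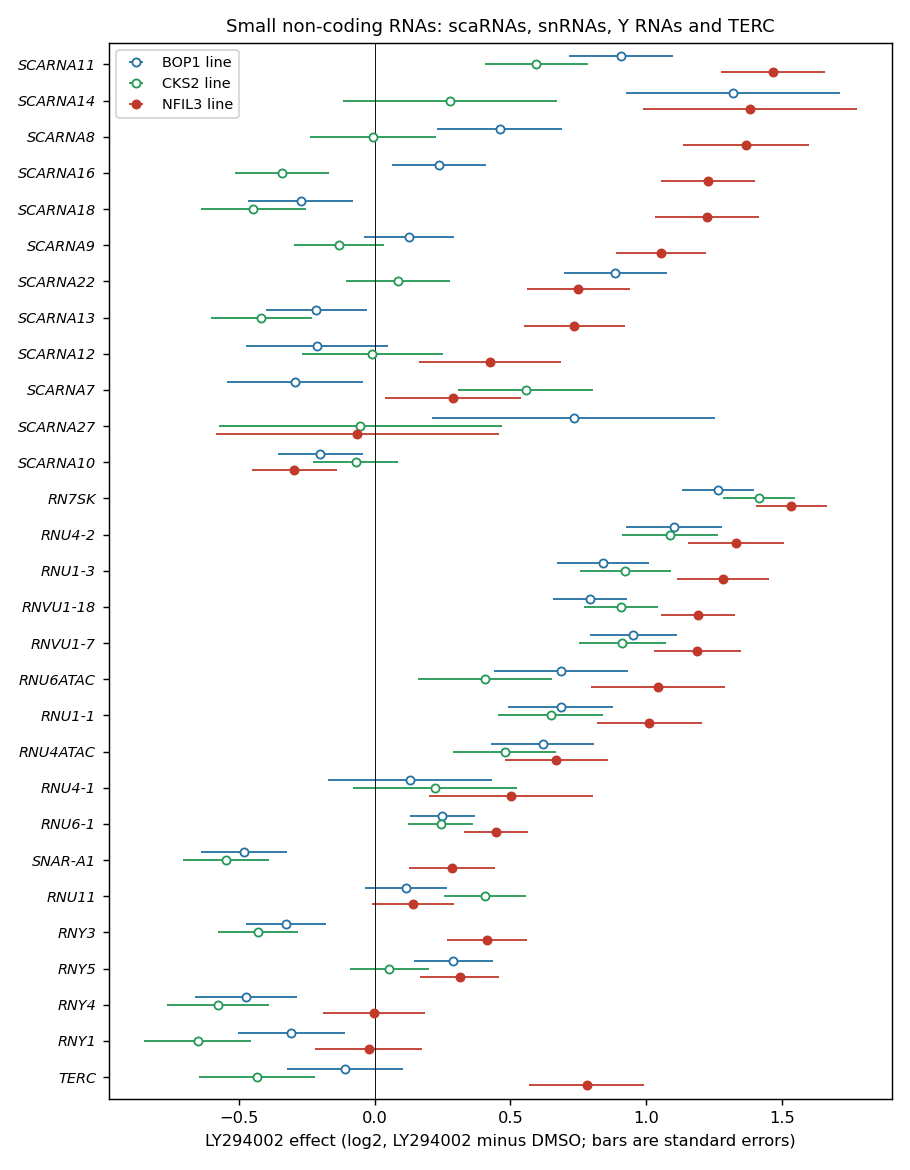
LY294002 effect (log2, horizontal axis) of 12 scaRNAs, 12 small nuclear RNAs, 4 Y RNAs and TERC in the 3 lines, with bars of 1 SE. SCARNA18 lay at 1.22 in the NFIL3 line and at -0.27 and -0.45 in the BOP1 and CKS2 lines, whereas RN7SK lay at 1.53, 1.27 and 1.42.

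By gene class, 37 of 253 long non-coding RNA genes rose (14.6%, against 12.1% of all genes) and 16 fell (6.32%, below the 13.8% of all genes). Of 140 small nucleolar RNA genes 13 rose (9.29%) and 20 fell (14.3%), near the shares over all genes. Leaving out a single array of the 4 gave 12 to 26 rises and 9 to 15 falls for the former and 7 to 15 and 12 to 19 for the latter. Of 11419 protein-coding genes 1361 rose and 1616 fell, and leaving out a single array gave 682 to 994 rises and 843 to 1247 falls. Among 4989 probes without a listed gene, tested apart, 504 rose (10.1%) and 286 fell (5.73%), and 25 had a higher and 2 a lower difference. The sequences that NFIL3 is known to bind were searched for in the promoters of the 107 genes, 80 of which had a window. TTACGTAA was found in 0 of 80, against 0.196% of all promoters (19), and TTATGTAA in 0 of 80, against 0.402% (39), which says only that these letters are not in these windows.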

How the data were processed

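The authors deposited a table of probe intensity for 24 Illumina HumanHT-12 v4 arrays, with a detection p-value beside each value as the scanner software wrote it, per the file headers, and a second table of processed intensity values. On each array the processed values ranked the probes exactly as the deposited signals did. GenomeStudio 2010.1 and Partek are named in the submitters' processing notes, and their roles are not given in the sources used here. Per the labels' protocols, biotin-labelled cRNA was made with an Ambion TotalPrep kit.

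From the deposited signals, limma 3.58.1 in R 4.3.3 computed log2 levels (neqc, which uses the detection p-values for the background and quantile normalizes, offset 16). Of 47323 probes, 30113 had 1 gene symbol, 8 several and 17202 none in the platform annotation. The filter kept 21608 probes with a detection p under 0.01 on 2 or more arrays. The probe with the highest mean stood for a gene, which gave 12141 genes, 3479 of them with several kept probes. A single limma model had a coefficient for each of 12 groups over 24 arrays (residual degrees of freedom 12, prior 4.44). Each comparison was a contrast in it, and calls needed a Benjamini-Hochberg adjusted p under 0.05. The code was tested on simulated data. The median SE was 0.129 for the LY294002 effect and 0.158 for its difference from the mean of the other lines, and 2 arrays a group limit the precision.

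Named genes were the NFIL3 probe, PDX1, DST, LINC00205 and SSTR2, the 14 largest called rises and falls without overlap, the 8 largest called differences each way, and up to 4 members of each list with the smallest p; other names were chosen after their values were seen. The members and lists were chosen with earlier results of these data known. The SB203580 comparison in the CKS2 line and the RNA classes were added after seeing the data. Alternatives changed the source of the values, the background correction, the detection filter, the choice of probe, the arrays fitted and a block for the replicate number. Same-numbered arrays of the NFIL3 DMSO and LY294002 groups deviated from their group means with a correlation of -0.04, and the numbers were not used to pair them. Figures used matplotlib 3.10.9 under Python 3.11.15. Promoters and miRNA sequences are from RefSeq (GRCh38.p14).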

Additional observations from a re-analysis of the deposited data

Results flagged for a closer look

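Listed here are 16 genes named by rule whose LY294002 effect in the NFIL3 line differed from the mean of the BOP1 and CKS2 effects. Limma's test of that difference gave each an adjusted p under 0.05. Other genes described above, such as NFAT5 and XBP1, also passed and are not repeated here. All values are differences in effect on the log2 scale. They came from 2 arrays a group, all of them lost their call when NFIL3 LY294002 replicate 2 was left out, and what lies behind them was not tested.

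Among genes given with the experiment, PDX1 differed by -0.815, DST by 1.281 and SSTR2 by 1.469. Positive differences were also those of the kinase AKT2 (1.763), the scaRNA SCARNA18 (1.583), the myosin MYO3B (1.533), the readthrough gene BORCS8-MEF2B (1.481), the kinase NEK8 (1.471) and the scaRNA SCARNA16 (1.28). AKT2, MYO3B and BORCS8-MEF2B were below background on both NFIL3 DMSO arrays, so that the sizes and order of these values are not measured ones. SCARNA18 kept its call under 16 of 19 alternatives.

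The negative differences were those of the helicase BRIP1 (-1.469), LINC01727 (-1.176), the pseudogene RPL29P2 (-1.163), PPAN-P2RY11 (-1.072), CCDC69 (-0.931), SCFD2 (-0.797) and NLE1 (-0.787). BRIP1, LINC01727 and CCDC69 were below background in LY294002, so that the sizes of their differences are not measured ones either. RPL29P2 was below background on all 4 NFIL3 arrays, so that it has no measured effect in the NFIL3 line and its printed value is no size. LINC01727 read 5.06 and 4.87 in LY294002 and 5.20 and 5.27 in SB203580 in the NFIL3 line. It was above background on 1 NFIL3 DMSO array, was at least 1.01-fold lower in LY294002, and its difference lost its call under 13 of 18 alternatives. BORCS8-MEF2B lost its call as often.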

How the results depend on the processing

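The count of genes changed by LY294002 in the NFIL3 line was 3148. It was 1731 when only the 4 arrays compared were fitted, 1635 to 2374 when a single array was left out, and within 1.5 times the reported count under the other alternatives. The difference counts were less stable. For NFIL3 against the mean of the other lines, against BOP1 and against CKS2 (120, 17 and 36 genes), they were 273, 153 and 176 with the deposited processed values, 274, 154 and 176 without background correction, and 63, 0 and 7 without the detection filter. With the mean of all kept probes the counts against BOP1 and CKS2 were 0 and 5. When only the compared arrays were fitted, all 3 were 0 (limma; 1376, at an unadjusted p under 0.05, for the first in the full model). Leaving out single arrays gave 0 to 318, 0 to 30 and 0 to 158. With a replicate block they were 109, 5 and 22, and the effect count was 3125; the numbers do not pair the arrays, so a call lost there is not read as a weaker effect. CERT1 reversed with the mean of its probes, to -0.02 (adjusted p = 0.944), since its probes moved in opposite directions. For other lost calls the cause was not tested. Of the named genes' effects over single arrays left out, 872 values stayed on the same side of the threshold, called or not, 158 lost a call and 6 gained one. Genes near background have bounds only.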
